A study of Mus musculus with 16 samples.

Results

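Pyraclostrobin is a strobilurin, one of the fungicides that bind the ubiquinol oxidation site of respiratory complex III. The 4 RNA-seq libraries of cells exposed to it, out of 16 libraries in the series, were compared as 2 high concentrations (300 and 1000 nM) against 2 low ones (30 and 100 nM). The libraries were grouped by the labeled concentration. The cells were C17.2α, a mouse neural line from the cerebellum that was made to express the thyroid hormone receptor TRα1, and all libraries come from this 1 line. Each compound was present for 24 h in medium whose serum had been stripped of thyroid hormone, without added T3, and the solvent DMSO was kept at the same level in every culture. Each concentration is 1 library, so that 2 neighboring concentrations stand in for replicates, and no label ties the libraries to separate cultures. The p-values below therefore measure the spread between these libraries. The 2 libraries labeled DMSO give a reference level and enter none of the tests. The same contrast was available at the same 4 concentrations for trifloxystrobin and for picoxystrobin. Pyraclostrobin carries a methoxycarbamate group where picoxystrobin carries a methoxyacrylate and trifloxystrobin a methoxyiminoacetate, and their side chains differ as well.

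Complex III passes electrons from ubiquinol to cytochrome c, and its cytochrome b subunit, which holds the site that strobilurins bind, is encoded by the mitochondrial DNA. Mitochondrial transcripts are cut out of long polycistronic RNAs that start near the ribosomal RNA genes. Cells that respire poorly are known to signal to the nucleus through the integrated stress response, in which the transcription factor ATF4 raises genes of amino acid supply. DNA damage and other stresses instead stabilize p53, which raises genes of arrest, repair and death. Both programs are described below together with the genes of the cell cycle.

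The total count of the pyraclostrobin libraries ranged from 12292390 to 17278217, and that of all 16 libraries from 12292390 to 18188099. Of 120 pairs of libraries, 1 pair held identical counts (azoxystrobin at 100 nM and the second DMSO library), and that azoxystrobin library was used in no comparison. Which of the 2 labels belongs to these counts cannot be told from the tables, so the library called the second DMSO library here may be one of azoxystrobin, and DMSO levels are given for both libraries, the first one first. Trifloxystrobin at 100 nM and picoxystrobin at 1000 nM stood apart from the other libraries of their compounds, as described with the steps below. Markers of neural progenitors were expressed (Nes at 165 to 202 CPM, Sox2 at 36.7 to 43.8 CPM, and Vim at 2487 to 2861 CPM over the 4 libraries), and the oligodendrocyte lineage gene Sox10 was expressed as well. Of 7 progenitor markers, however, 4 averaged under 10 CPM. The neuronal markers Rbfox3 and Stmn2, the astrocyte marker Aqp4, and the microglial markers C1qa and Ptprc were listed at 0 in these libraries. Other members of these lists had counts: neuronal markers summed to 133 to 156 CPM and astrocyte markers to 33.1 to 55.5 CPM. Oligodendrocyte markers summed to 1457 to 1551 CPM and mesenchymal markers to 2631 to 4421 CPM. CPM values are counts set relative to the depth of their library after TMM scaling.

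Among the 9785 genes that averaged over 10 CPM in the 4 pyraclostrobin libraries, 2847 (29.1%) differed between the high and the low concentrations by edgeR's quasi-likelihood test at a Benjamini-Hochberg adjusted p under 0.05. Of these, 1487 (15.2%) were higher and 1360 (13.9%) were lower at the high concentrations. The median log2 fold change over all tested genes was close to 0 (0.000287). The count of called genes fell to 1504 without the 1000 nM library, to 1365 with a linear trend on log10 concentration in place of the 2 levels, and to 743 when the spread was estimated in 1 model with the libraries of all compounds and DMSO. Of the 119 genes named here that were called, 70 lost their call in that model. Genes rich in G and C tended to be lower at the high concentrations (Pearson's r of -0.25 across genes, which are not independent replicates), and 3417 genes were called once the trends on GC content and length had been removed from each library.

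The minimum was set on the average of the 4 libraries, so that a gene low in one group could pass only by being high in the other. Of the tested genes, 95 were under 10 CPM in both low libraries, of which 60 were called higher, and 64 were under 10 CPM in both high libraries, of which 43 were called lower. Among the 9626 other genes, 1427 were called higher and 1317 lower. Nanos1, Pmaip1, Rdm1, Mctp2, Ankle1, Mybl2, Fos and Nqo1 passed through the high libraries, and Chac1, Slc7a11, Hist1h1c, Socs2 and Rxrb through the low ones. Their levels are given below as a description. With no filter on low counts each of these 13 was called as well (adjusted p up to 0.00843).

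The change was concentrated between 100 and 300 nM. From 30 to 100 nM, 1 of the 9785 genes (0.0102%) changed over 2-fold between the 2 libraries, and the SD of the log2 change over all genes was 0.157. From 100 to 300 nM, 69 genes (0.705%) changed over 2-fold, with 46 higher and 23 lower, and the SD was 0.296. From 300 to 1000 nM no gene changed over 2-fold and the SD was 0.158. The 2 DMSO libraries, set against each other, differed over 2-fold for 2 genes (0.0204%), with an SD of 0.164, where the label of the second is in doubt as given above. The first and the last step of pyraclostrobin thus had a spread near that between the libraries labeled DMSO. The last step nevertheless had a direction: of the 1487 genes called higher, 78.7% were higher at 1000 than at 300 nM, against 49.6% of all genes tested, and of the 1360 genes called lower, 21% were. From 30 to 100 nM the shares leaned the other way: 45.5% of the genes called higher and 59.4% of those called lower rose, against 50.8% of all. These shares use libraries that also chose the genes and are given without a test. For trifloxystrobin 53 genes (0.542%) changed over 2-fold from 30 to 100 nM and 20 (0.204%) from 100 to 300 nM, and for picoxystrobin 409 (4.18%) did so from 300 to 1000 nM.

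**Figure D1:**
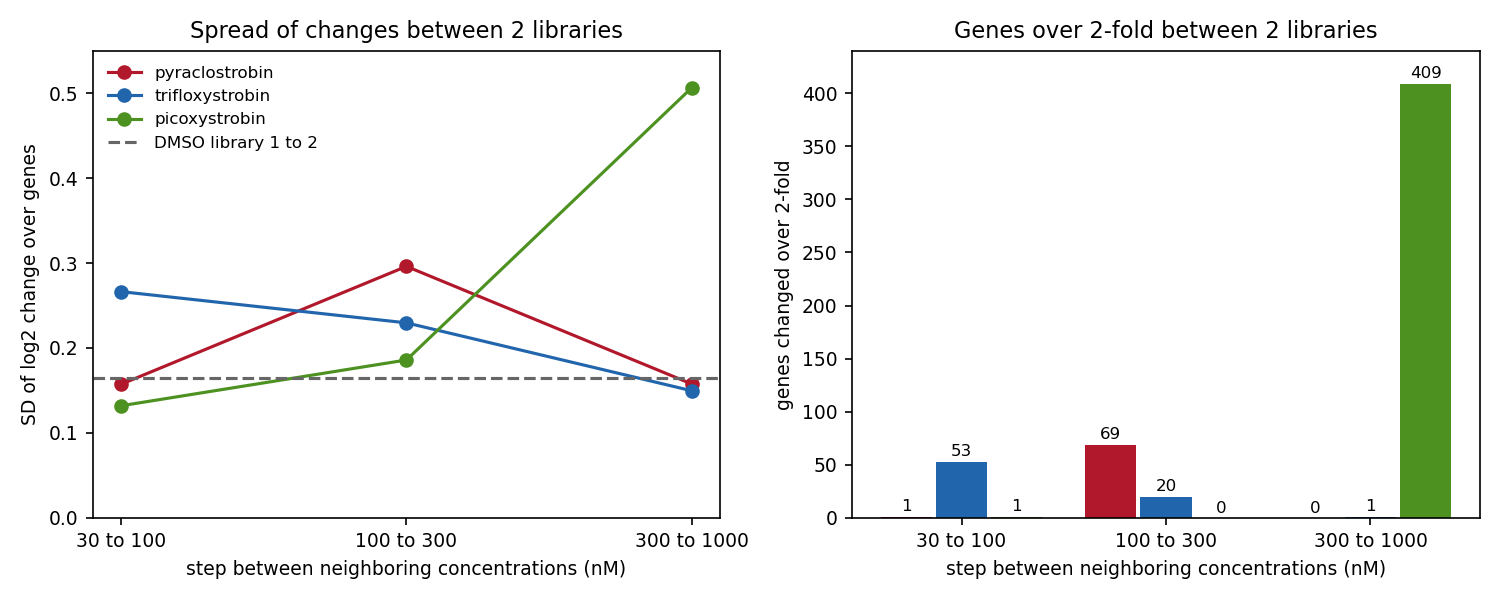
Spread of changes between libraries of neighboring concentrations. The left panel plots the SD of the log2 change over 9785 genes for each step (nM, x axis) of 3 compounds, with the 2 DMSO libraries as a dashed line, and the right panel the number of genes that changed over 2-fold; for pyraclostrobin the step from 100 to 300 nM stands out with an SD of 0.296 and 69 genes, against 1 and 0 genes in the steps before and after it.

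The transcripts of the mitochondrial DNA changed strongly and unequally. mt-Cytb, the cytochrome b of complex III (chromosome M, 14145 to 15288, + strand, GRCm38), stood at 21297 and 19746 CPM at 30 and 100 nM and at 4784.5 and 3033 CPM at 300 and 1000 nM. The DMSO libraries held 16455 and 15624 CPM, so that the low concentrations were above them and the high ones below. mt-Cytb fell by 2.39 on the log2 scale (SE 0.16, adjusted p = 1.99e-06). This was the strongest fall of any gene tested. The complex I subunits mt-Nd4, mt-Nd5 and mt-Nd6 fell by 1.63, 1.44 and 1.78 (SE 0.11, 0.09 and 0.09), and mt-Nd2 fell by 0.89 (SE 0.09). For mt-Nd6, which is read from the other strand and overlaps the end of mt-Nd5, the levels were 1203 and 1071 CPM at the low and 360 and 305 CPM at the high concentrations.

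Other genes of the same molecule did not fall. mt-Rnr1, the 12S ribosomal RNA (70 to 1024 on chromosome M), stood at 2462 and 2055 CPM at the low and at 6748 and 9718 CPM at the high concentrations, against 2060 and 2968 CPM in DMSO. It rose by 1.86 (SE 0.14, adjusted p = 5.74e-06), and mt-Rnr2, the 16S ribosomal RNA that follows it, rose by 0.70 (SE 0.14, adjusted p = 0.00226), a call that was lost with DESeq2 (adjusted p = 0.0519) and with all compounds in 1 model (adjusted p = 0.107). mt-Nd1, the next gene, had a log2 fold change of -0.05 (SE 0.09, adjusted p = 0.688), and mt-Co1, a core subunit of complex IV, of 0.19 (SE 0.09, adjusted p = 0.142). Read in their order along the molecule, the 10 mitochondrial genes that passed the minimum began with the ribosomal RNAs, which rose. After mt-Nd1, mt-Nd2 and mt-Co1 came mt-Nd4, mt-Nd5, mt-Nd6 and mt-Cytb, which each fell more than mt-Nd2. The last of the 10, the proline tRNA mt-Tp on the other strand, fell by 1.64 (SE 0.08). Its log2 fold change was -0.77 under trifloxystrobin and -0.70 under picoxystrobin, and a difference from pyraclostrobin was called for neither compound. Neighbors on the same strand come from shared precursor RNAs, and mt-Nd6 and mt-Tp are read from the other strand. mt-Co1 breaks the order, as do mt-Nd5, which fell less than mt-Nd4, and mt-Tp, which fell less than mt-Cytb. The order is therefore a description. Of the 13 protein-coding genes of the mitochondrial DNA, 7 passed the minimum, and 5 of these (71.4%) fell, where 13.9% of all tested genes did. The other 6 were under 10 CPM. Of these 6, mt-Atp8, mt-Co3, mt-Nd3 and mt-Nd4l were at 0 in the DMSO and pyraclostrobin libraries. There mt-Atp6 was at 0 to 0.063 CPM and mt-Co2 at 4.28 to 7.20 CPM. All 6 lie between mt-Co1 and mt-Nd4, so the order above is read across a gap. Why they hold so few counts is not given in the sources used here, and they are not read as low expression. Which reads were assigned to overlapping mitochondrial genes is not given in the sources used here.

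**Figure D2:**
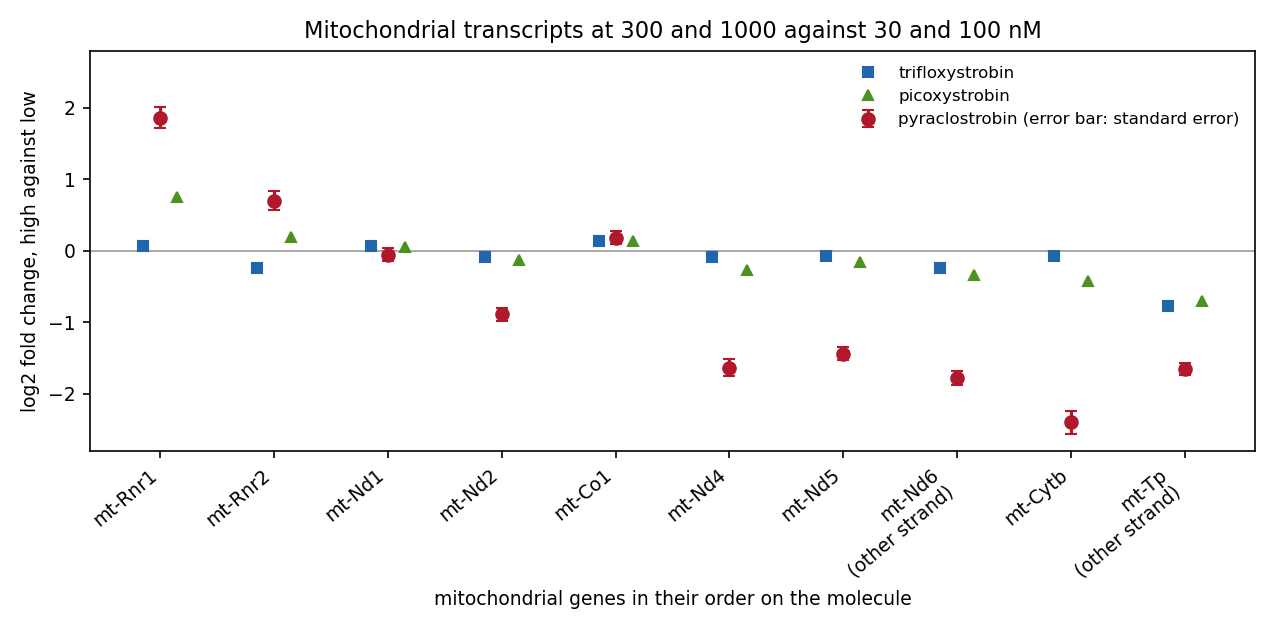
Log2 fold change of the 10 tested mitochondrial genes between 300 and 1000 nM and 30 and 100 nM (y axis), in their order on the molecule (x axis). Circles with standard errors are pyraclostrobin, squares trifloxystrobin and triangles picoxystrobin. Under pyraclostrobin the values run from 1.86 for mt-Rnr1 to -2.39 for mt-Cytb. Those of trifloxystrobin run from 0.13 for mt-Co1 to -0.77 for mt-Tp, and those of picoxystrobin from 0.75 for mt-Rnr1 to -0.70 for mt-Tp.

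The genes of the mitochondrial DNA together took 11.6% and 11.2% of all counts at the low concentrations and 9.68% and 9.5% at the high ones, against 9.30% and 9.46% in DMSO. With mitochondrial genes left out before normalization, 2924 of 10060 nuclear genes were called, an alternative added after the data were seen. The nuclear genes of the respiratory chain moved little. Of the 9 genes of complex III, 1 rose (Uqcrb, by 0.52, SE 0.15) and none fell, while Cyc1, its cytochrome c1, had a log2 fold change of 0.13 (SE 0.08) and Uqcrfs1, its iron-sulfur protein, of 0.08 (SE 0.08). Uqcrb lost its call with DESeq2 (adjusted p = 0.218) and without the 1000 nM library (log2 fold change 0.19, adjusted p = 0.301). Of 37 tested genes of complex I, 3 rose and none fell, with a median log2 fold change of 0.09, and without the 1000 nM library 1 rose. Ndufb10, a membrane-arm subunit, rose by 0.55 (SE 0.08), from 62.7 and 61.2 CPM to 90.4 and 91.7 CPM. Of 9 genes of complex IV, 1 rose (Cox7a2, by 0.23), and of 13 genes of ATP synthase none passed the test. Cox7a2 lost its call with each of the 4 libraries left out (adjusted p from 0.0536 to 0.187). Of 70 genes of the mitochondrial ribosome, 8 (11.4%) rose and 3 (4.29%) fell, shares below the 15.2% and 13.9% of all tested genes, and without the 1000 nM library 4 rose and 1 fell. Among them Mrpl33 rose by 0.59 (SE 0.11) and Mrpl38 fell by 0.59 (SE 0.12). For the mitochondrial chaperones and proteases, 2 of 10 (20%) fell, where 13.9% of all tested genes did. They were the protease subunit Clpp, by 0.47, and the chaperone Hspa9, by 0.33. Hspa9 was not called without the 1000 nM library (adjusted p = 0.0656).

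Genes that p53 activates were higher at the high concentrations. Of 33 tested members of the list, 25 rose and none fell, with a median log2 fold change of 0.60, where 15.2% of all tested genes rose. Of these, 2 passed the minimum through the high libraries only, and 23 of the other 31 members rose. Over the alternatives the number that rose was between 11, with all compounds in 1 model, and 26. Cdkn1a, the p21 inhibitor of cyclin-dependent kinases (chromosome 17, 29090976 to 29100727, GRCm38), stood at 36.4 and 47.8 CPM at 30 and 100 nM and at 134 and 141 CPM at 300 and 1000 nM. The low values were close to the 44.6 and 37.4 CPM of the DMSO libraries. Cdkn1a rose by 1.71 (SE 0.11, adjusted p = 1.47e-06), which is 3.28-fold. Ccng1, cyclin G1, which recruits a phosphatase to MDM2, went from 536 and 574 to 1632 and 2138 CPM. Both low libraries of Ccng1 were already above DMSO (379 and 352 CPM), and the gene rose by 1.76 (SE 0.11). Trp53inp1, a cofactor of p53, went from 205 and 196 to 516 and 678 CPM and rose by 1.57 (SE 0.11).

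Of 7 regulators of p53 that were tested as a list of their own, 3 (42.9%) rose and 2 (28.6%) fell. Over all tested genes 15.2% rose and 13.9% fell. The regulators were Ccng1, Mdm2 and Ppm1d against Trp53 and Usp7. Mdm2, the ligase that degrades p53, went from 207 and 205 to 354 and 430 CPM, with 182 and 190 CPM in DMSO, and rose by 0.93 (SE 0.09, adjusted p = 3.33e-05). Ppm1d, the WIP1 phosphatase that also restrains p53, rose by 0.54 (SE 0.10). Trp53 itself was lower: 188 and 203 CPM at the low, 146 and 159 CPM at the high concentrations, and 266 and 233 CPM in DMSO, a fall by 0.36 (SE 0.08, adjusted p = 0.00621). The call of Trp53 was lost with the trend on concentration (adjusted p = 0.153) and with all compounds in 1 model (adjusted p = 0.188). Usp7, which deubiquitinates MDM2 and p53, fell by 0.29 (SE 0.08), a call that was lost without the 30 nM or the 1000 nM library (adjusted p = 0.156 and 0.107). Of genes of apoptosis, Pmaip1, the BH3-only protein NOXA, went from 5.75 and 6.54 to 22.6 and 34.1 CPM and rose by 2.22 (SE 0.19). Further genes of the list were picked for their role after their values were seen. The effector Bax rose by 0.46, the death receptors Fas and Tnfrsf10b rose by 0.60 and 0.84, and Bbc3, the BH3-only protein PUMA, had a log2 fold change of -0.18 (SE 0.13, adjusted p = 0.349). Pidd1, which scaffolds caspase-2, rose by 1.36, and Polk, a polymerase that copies past damaged bases, rose by 1.01. Gadd45a, a further target in DNA damage, had a log2 fold change of 0.21 (SE 0.10, adjusted p = 0.134).

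**Figure D3:**
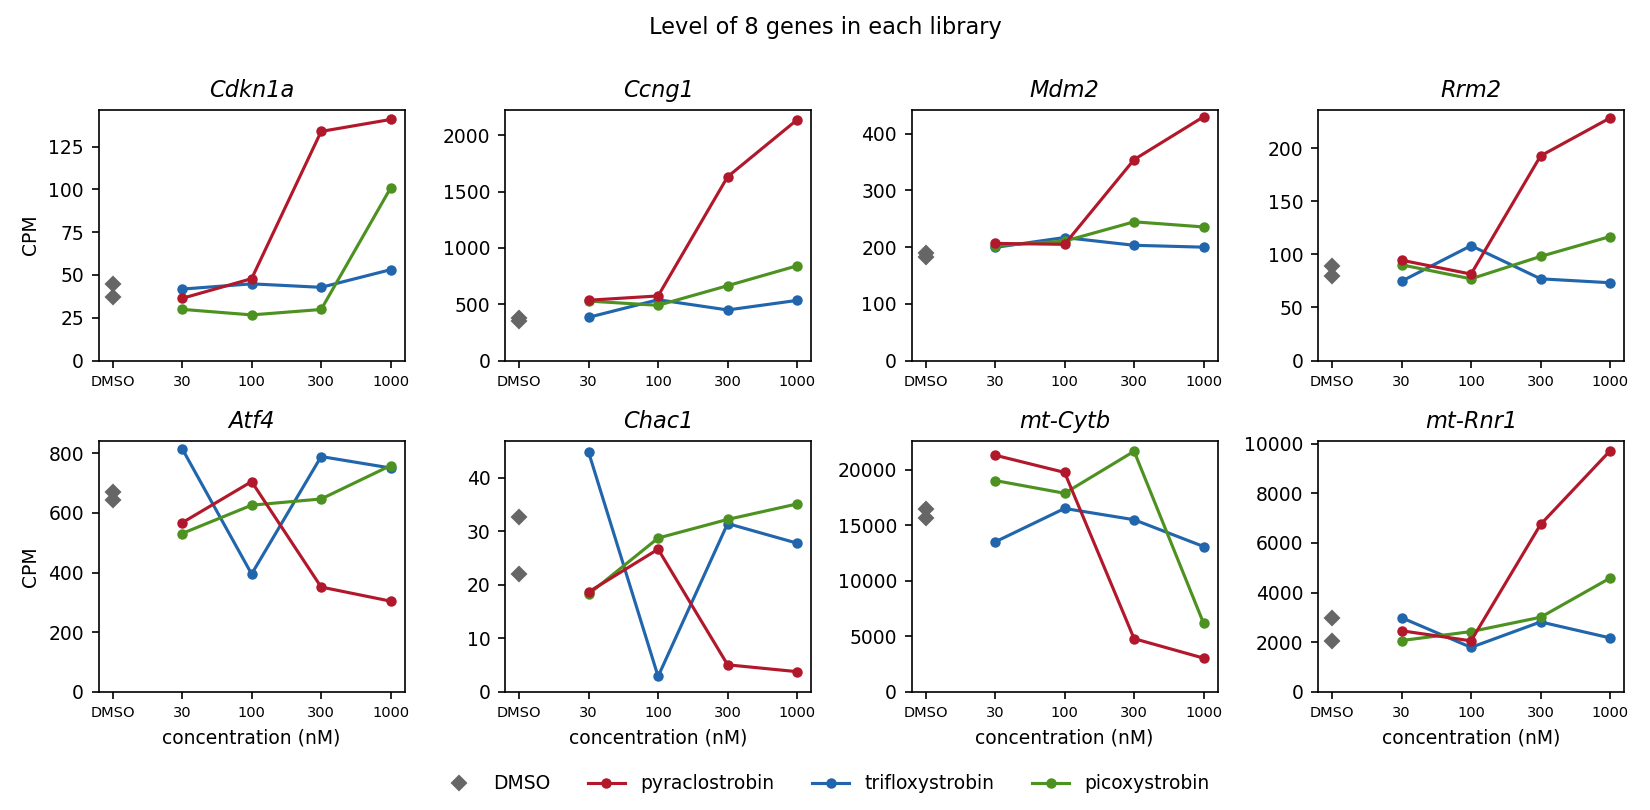
Level in CPM (y axis) of 8 genes in the DMSO libraries (diamonds) and at each concentration of 3 compounds (lines, x axis in nM), 1 library a point. Under pyraclostrobin Cdkn1a, Ccng1, Mdm2, Rrm2 and mt-Rnr1 were higher at both high concentrations than at both low ones, and Atf4, Chac1 and mt-Cytb were lower; for Atf4 and Chac1 the trifloxystrobin library at 100 nM was low as well.

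Genes of DNA replication were higher at the high concentrations. Of 47 tested genes of licensing, forks and nucleotide synthesis, 44 (93.6%) rose and none fell, with a median log2 fold change of 0.66, where 15.2% of all tested genes rose. The number that rose was between 14, with all compounds in 1 model, and 46 over the alternatives. Rrm2, the regulatory subunit of ribonucleotide reductase, stood at 94.5 and 81.4 CPM at the low and at 193 and 228 CPM at the high concentrations, against 89.2 and 79.4 CPM in DMSO, and rose by 1.25 (SE 0.10, adjusted p = 7.50e-06). Cdc6, which loads the MCM helicase on origins, went from 23.6 and 24.9 to 53.9 and 60.4 CPM and rose by 1.24 (SE 0.10). For both genes the low libraries lay near the controls. Prim1, the catalytic subunit of primase, rose by 1.14 (SE 0.10), and Ccne2, a cyclin E that drives entry into S phase, rose by 1.22 (SE 0.13). Of the 6 helicase subunits Mcm2 to Mcm7, a set picked after the values were seen, 5 rose by 0.49 to 0.76, and Mcm7 had a log2 fold change of 0.15 (SE 0.09, adjusted p = 0.234). The other members of the list that were not called were Rfc1, a subunit of the clamp loader, at 0.16, and Pold2, a subunit of polymerase delta, at -0.09.

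Genes of mitosis were mixed. Of 37 tested members 15 (40.5%) rose and 2 (5.41%) fell, against 15.2% and 13.9% of all tested genes, and the median log2 fold change was 0.23. No member rose with all compounds in 1 model, and up to 19 did under the other alternatives, with 10 without the 100 nM or without the 1000 nM library. Mybl2, a transcription factor of the S and G2 phases, went from 8.35 and 9.73 to 16.4 and 19.0 CPM and rose by 0.98 (SE 0.14), with both low libraries under the minimum. The kinase Aurkb rose by 0.65 (SE 0.09), Birc5, its partner survivin, by 0.62 (SE 0.10), and the checkpoint kinase Bub1 by 0.57 (SE 0.10). The 2 that fell, named for that reason, were Plk1, the polo-like kinase, by 0.43, and Cdc20, the activator of the anaphase-promoting complex, by 0.27. The DMSO libraries alone spanned 32.4 to 52.4 CPM for Plk1, a wider range than from 27.9 to 42.4 CPM over the 4 pyraclostrobin libraries. The call of Plk1 was lost without the 300 nM library (adjusted p = 0.0565), and that of Cdc20 without the 30 nM or without the 1000 nM library (adjusted p = 0.171 and 0.185) as well as with DESeq2 (adjusted p = 0.0937). Of 11 tubulins tested, 6 (54.5%) rose and none fell, and without the 1000 nM library 3 rose. Tubb6 went from 162 and 164 to 260 and 278 CPM and rose by 0.72 (SE 0.08), and Tubb4b rose by 0.69 (SE 0.08). The median log2 fold change of the tubulins was 0.35, against 0.37 for picoxystrobin and -0.0022 for trifloxystrobin in the same contrast. For the mitosis list the median was 0.28 for picoxystrobin and -0.06 for trifloxystrobin. Of 69 clustered histone genes in the tables, 67 were under the minimum. Hist1h1c, the linker histone H1.2, went from 20 and 21.5 to 8.14 and 4.68 CPM, with 11.8 and 14.5 CPM in DMSO, and fell by 1.70 (SE 0.19), with both high libraries under the minimum, while Hist2h2be had a log2 fold change of 0.19 (SE 0.09, adjusted p = 0.157). In these bulk libraries, fewer cells in a cycle phase and less RNA per cell cannot be told apart.

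Genes of the integrated stress response were lower at the high concentrations. Of 35 tested members 26 fell and 1 rose, with a median log2 fold change of -0.48, where 13.9% of all tested genes fell. Of these, 2 (Chac1 and Slc7a11) passed the minimum through the low libraries only, and 24 of the other 33 members fell. The number that fell was between 5, with all compounds in 1 model, and 28 over the alternatives. Atf4, the factor that gives the response its name in this list, stood at 567 and 705 CPM at 30 and 100 nM and at 352 and 304 CPM at 300 and 1000 nM. The DMSO libraries held 644 and 670 CPM, and Atf4 fell by 0.96 (SE 0.10, adjusted p = 6.18e-05). Its partners fell with it: Atf5 went from 48.2 and 67.2 to 20.3 and 15.5 CPM and fell by 1.69 (SE 0.16), and Ddit3, the factor CHOP, fell by 0.98 (SE 0.11). Among the targets, Chac1, which degrades glutathione (chromosome 2, 119351229 to 119354381, GRCm38), went from 18.7 and 26.7 to 5.05 and 3.77 CPM, with 22.1 and 32.6 CPM in DMSO, and fell by 2.36 (SE 0.20). Slc7a11, the cystine importer, went from 17.7 and 23.2 to 6.88 and 5.08 CPM and fell by 1.77 (SE 0.18). Asns, asparagine synthetase, went from 129 and 172 to 106 and 98.7 CPM and fell by 0.55 (SE 0.11, adjusted p = 0.00329), or by 0.34 without the 100 nM library. For all of these the 30 nM library was lower than the 100 nM library, and both high libraries were below both DMSO libraries. The member that rose, named for that reason, was Atf3, by 0.43 (SE 0.15, adjusted p = 0.0412). Its call was lost with DESeq2 (adjusted p = 0.0998), without the 30 nM library (log2 fold change 0.22, adjusted p = 0.375) and without the 300 nM library (adjusted p = 0.12).

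Low levels of these genes were also found in a library of another compound. In the trifloxystrobin library at 100 nM, Chac1 stood at 2.88 CPM, Atf4 at 395 CPM and Atf5 at 24.7 CPM, against 44.8, 816 and 130 CPM at 30 nM of the same compound. What sets the level in that library was not tested.

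Many of the cytosolic aminoacyl-tRNA synthetases are known targets of ATF4. Of 20 tested 11 (55%) fell and none rose, against 13.9% and 15.2% of all tested genes, with a median log2 fold change of -0.32, and 7 fell without the 1000 nM library, while no fall was called with all compounds in 1 model. Aars, the alanine enzyme, went from 95.2 and 109 to 64.4 and 61.1 CPM and fell by 0.70 (SE 0.09). Tars and Iars, the threonine and isoleucine enzymes, fell by 0.60 and 0.55 (SE 0.09 and 0.10).

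Promoter sequence was set beside the list. In the table of RefSeq promoters (GRCm38.p6), 30 of the 35 tested members had an entry, and the 250 bases before the start were searched on both strands for TGATGNAA, the core of the composite element that ATF4 binds, a search added after the data were seen. Of the 30, 7 (23.3%) held it, against 3.53% of all 27018 promoters in the table, which include genes that were not tested. The list was made of genes of the ATF4 response, so a higher share follows from that choice. It is not a result of these data. A match is a description of these letters and not a site. The 5 promoters shown belong to members that were called in the test and held the match, which is printed in capitals. They need not be all such members, because promoters on a further chromosome were not printed. It reads TTNCATCA where it lies on the other strand. Among the 5 shown, Slc7a11 holds it in both orientations, and Atf3, the member that rose, holds it as do 4 members that fell. The windows are chr2:119350992-119351241 (+) for Chac1, chr6:7693210-7693459 (-) for Asns, chr3:50443614-50443863 (-) for Slc7a11, chr7:126625471-126625720 (-) for Nupr1, a stress-induced chromatin protein that fell by 0.99, and chr1:191183334-191183583 (-) for Atf3. Each is printed 5′ to 3′ on the strand of its gene.
Chac1: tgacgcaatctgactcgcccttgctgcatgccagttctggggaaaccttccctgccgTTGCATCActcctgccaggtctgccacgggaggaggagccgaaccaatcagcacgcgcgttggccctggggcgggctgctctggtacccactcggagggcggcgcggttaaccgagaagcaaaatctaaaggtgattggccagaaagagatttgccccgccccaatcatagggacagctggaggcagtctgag
Asns: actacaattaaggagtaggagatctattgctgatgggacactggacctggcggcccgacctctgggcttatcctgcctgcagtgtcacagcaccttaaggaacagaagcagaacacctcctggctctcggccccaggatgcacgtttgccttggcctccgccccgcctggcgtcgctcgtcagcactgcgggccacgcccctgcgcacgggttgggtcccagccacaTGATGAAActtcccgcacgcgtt
Slc7a11: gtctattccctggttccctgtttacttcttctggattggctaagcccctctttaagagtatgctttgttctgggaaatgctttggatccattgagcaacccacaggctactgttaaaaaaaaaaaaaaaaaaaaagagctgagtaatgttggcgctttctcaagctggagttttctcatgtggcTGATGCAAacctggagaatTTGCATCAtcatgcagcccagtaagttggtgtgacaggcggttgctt
Nupr1: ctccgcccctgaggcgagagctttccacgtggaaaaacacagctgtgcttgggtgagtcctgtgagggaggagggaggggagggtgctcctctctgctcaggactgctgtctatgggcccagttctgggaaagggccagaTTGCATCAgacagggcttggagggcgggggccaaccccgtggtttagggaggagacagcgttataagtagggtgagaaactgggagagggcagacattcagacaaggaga
Atf3: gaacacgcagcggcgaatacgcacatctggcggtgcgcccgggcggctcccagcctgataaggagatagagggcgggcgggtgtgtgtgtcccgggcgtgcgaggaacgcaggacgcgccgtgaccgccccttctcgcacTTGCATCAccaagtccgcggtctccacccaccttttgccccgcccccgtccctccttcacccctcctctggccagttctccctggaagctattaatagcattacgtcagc

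Of the other motifs searched, CCAAT (either strand), bound by NF-Y, was in the promoters of 53.3% of these stress response genes, 57.1% of the p53 list and 74.2% of the mitosis list, against 34.5% of all promoters. TTTGAA, the core of the cell cycle element CHR, was in 32.3% of mitosis promoters and 16.3% of all. The list members had all passed the minimum, while the promoters of the table include genes that were not tested. These sets are therefore unlike, and the share among all tested genes was not taken. Each of these lists had an entry for over 80% of its tested members, and the lists of DNA replication (78.7%) and others with fewer entries were left out.

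Of 15 tested genes of glycolysis 8 (53.3%) fell and 1 rose, where 13.9% of all tested genes fell, with a median log2 fold change of -0.23, and 5 fell without the 100 nM library and 4 without the 1000 nM library. Pfkl, the liver form of phosphofructokinase, went from 24.9 and 25.7 to 15.0 and 15.4 CPM, with 26.5 and 27.0 CPM in DMSO, and fell by 0.74 (SE 0.11). The aldolase Aldoc fell by 0.83 (SE 0.16), or by 0.52 without the 1000 nM library, the enolase Eno1 by 0.50 (SE 0.09), and Pdk1, which blocks the entry of pyruvate in the mitochondrion, by 0.54 (SE 0.10). Pfkp, the platelet form, was the member that rose, by 0.44 (SE 0.15, adjusted p = 0.0414). Pfkp was not called without the 30 nM, the 300 nM or the 1000 nM library (adjusted p = 0.368, 0.0682 and 0.0814), or with DESeq2 (adjusted p = 0.154). Of 9 tested genes of the hypoxia response 1 (11.1%) fell, a share near the 13.9% of all tested genes. It was the histone demethylase Kdm3a, by 0.47 (SE 0.08).

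Of 23 tested genes of cholesterol synthesis and uptake 10 (43.5%) rose and 1 fell, where 15.2% of all tested genes rose, with a median log2 fold change of 0.24, and 6 rose without the 30 nM library and 5 without the 300 nM library. Hsd17b7, a ketoreductase of the sterol path, went from 324 and 356 to 604 and 565 CPM, with 324 and 315 CPM in DMSO, and rose by 0.78 (SE 0.08, adjusted p = 3.90e-05). Idi1, the isopentenyl diphosphate isomerase, rose by 0.95 (SE 0.13), and Msmo1, the methylsterol oxidase, by 0.53 (SE 0.09). Nsdhl, which acts in the same demethylation of sterols, was the member that fell, by 0.33 (SE 0.10). Its call was lost without the 100 nM or the 1000 nM library (in the latter case with adjusted p = 0.202). Among 26 tested NRF2 targets and antioxidant genes 9 (34.6%) rose and 5 (19.2%) fell, and the number that fell was 0 without the 100 nM library and 2 without the 1000 nM library. Over all tested genes 15.2% rose and 13.9% fell. Nqo1 passed the minimum through the high and Slc7a11 through the low libraries only, and among the other 24 members 8 rose and 4 fell. Gclc, the limiting enzyme of glutathione synthesis, rose by 0.47 (SE 0.09), and Prdx1, a peroxiredoxin, by 0.44 (SE 0.09). Nqo1, a quinone reductase, named after its value was seen, rose by 0.72 (SE 0.15), while Slc7a11, a member of this list too, fell as given above.

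Of 33 tested genes of the extracellular matrix 12 (36.4%) fell, where 13.9% of all tested genes did. The 5 that rose (15.2%) were the same share as over all tested genes, and 2 rose without the 30 nM or without the 1000 nM library. Col1a1, the type I collagen chain, stood at 2810 and 3023 CPM at the low and at 1884 and 1725 CPM at the high concentrations, against 4106 and 4729 CPM in DMSO, and fell by 0.70 (SE 0.08, adjusted p = 0.000105). Here the low concentrations were already below the controls. Col1a2 fell by 0.75 (SE 0.10), Fbn1, the fibrillin of microfibrils, by 0.72 (SE 0.09), and the lysyl hydroxylase Plod1 by 0.52 (SE 0.09). The summed level of 7 mesenchymal markers, which include both collagens, moved with them, from 4155 to 4421 CPM at the low to 2631 to 3005 CPM at the high concentrations. Of the 6 of these markers that were tested, 3 fell, and 2 rose, among them the actin Acta2 (by 0.92, SE 0.20, and by 0.57 without the 300 nM or 0.61 without the 30 nM library). The call of Acta2 was lost with DESeq2 (adjusted p = 0.136), the robust fit (0.0568), the trend on concentration (0.0512) and all compounds in 1 model (0.129). The part of that shift in the result was not tested. Summed neural progenitor markers ranged from 2840 to 3071 CPM and from 2728 to 2828 CPM. Summed astrocyte markers, which include Aldoc, went from 53.6 and 55.5 to 39.1 and 33.1 CPM, with 52.3 and 62.2 CPM in DMSO. Neuronal markers went from 144 and 133 to 143 and 156 CPM, and oligodendrocyte markers from 1475 and 1549 to 1551 and 1457 CPM.

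Of 10 tested Notch genes 3 (30%) fell and 1 (10%) rose, where 13.9% of all tested genes fell and 15.2% rose. Notch3 went from 16.8 and 25.3 to 50.2 and 57.5 CPM and rose by 1.37 (SE 0.15, adjusted p = 5.26e-05), while Notch2, its paralog, went from 267 and 274 to 167 and 139 CPM and fell by 0.83 (SE 0.09, adjusted p = 6.95e-05). These receptors thus moved in opposite directions. Lfng, the fringe enzyme that modifies Notch receptors, fell by 0.55 (SE 0.09), and the effector Hes1 by 0.27 (SE 0.09), a call that was lost without the 100, the 300 or the 1000 nM library (adjusted p = 0.154, 0.144 and 0.0525) and with DESeq2 (adjusted p = 0.0762). For the thyroid hormone list, 4 of 10 tested genes (40%) fell and none rose, against 13.9% and 15.2% of all tested genes, and 1 fell without the 100 nM or without the 1000 nM library. Ncor1, a corepressor of unliganded receptors, fell by 0.29 (SE 0.08), and its call was lost without the 100 nM or the 1000 nM library (in the latter case with adjusted p = 0.0802). Among the 4 members of this list that fell, 1 (Rxrb) passed the minimum through the low libraries only, and 3 of the other 9 members fell. Whether the introduced receptor adds to the counts of Thra, the gene of TRα1, is not given in the sources used here. Thra stood at 71.7 and 73.9 against 65.1 and 61.0 CPM, with a log2 fold change of -0.21 (SE 0.08, adjusted p = 0.0741). Klf9, a gene that T3 raises, had a log2 fold change of 0.19 (SE 0.11, adjusted p = 0.204). Hr, a further T3 target, was at 3.96 to 4.73 CPM in the 4 libraries and was not tested. Hprt, used by the study as a reference gene in its RT-qPCR, stood at 191 and 174 against 215 and 249 CPM, a rise by 0.35 (SE 0.09, adjusted p = 0.0125) that was not called without the 100 nM or the 1000 nM library (adjusted p = 0.0619 and 0.137).

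Of 59 tested genes of the cytosolic ribosome 17 (28.8%) fell and 2 (3.39%) rose, with a median log2 fold change of -0.13, and 11 fell without the 100 nM library and 5 without the 1000 nM library. Rpl10a went from 38.3 and 42.4 to 22 and 19.4 CPM and fell by 0.97 (SE 0.11), and Rps27l, a ribosomal protein that p53 is known to activate, rose by 0.55 (SE 0.11). Over all tested genes 13.9% fell and 15.2% rose, which is the reference for each list of this paragraph. Ribosomal protein genes have many processed copies, between which reads can be split, so their counts are uncertain. Of 7 tested cytosolic chaperones 3 rose and 2 fell, and 1 rose without the 1000 nM library. Hsp90ab1, the constitutive HSP90, went from 2603 and 2743 to 1867 and 1689 CPM and fell by 0.59 (SE 0.08), and the cochaperone Dnajb1 rose by 0.43 (SE 0.08). Of 17 tested chaperones of the endoplasmic reticulum 3 (17.6%) fell and 2 (11.8%) rose, shares near the 13.9% and 15.2% of all tested genes, and 1 fell without the 1000 nM library. They include Xbp1, a factor of the unfolded protein response, which fell by 0.58 (SE 0.09), and Edem1, which sorts misfolded proteins to degradation, which rose by 0.43 (SE 0.08). Of 23 tested lysosomal genes 6 (26.1%) rose and 3 (13%) fell, while 3 rose without the 30 nM and 10 without the 100 nM library and none fell without the 100 nM or without the 1000 nM library. In this list the cathepsins Ctsb and Ctsl rose by 0.42 and 0.37 (SE 0.08 and 0.07). Of 14 tested immediate early genes 4 (28.6%) rose and 1 (7.14%) fell. Fos went from 8.10 and 8.91 to 13.6 and 17.1 CPM and rose by 0.86 (SE 0.15), with both low libraries under the minimum. Of 11 tested genes of fatty acid synthesis 2 (18.2%) rose and 1 (9.09%) fell, shares near those of all tested genes. The malic enzyme Me1, which supplies NADPH to this path, rose by 0.46 (SE 0.08).

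**Figure D4:**
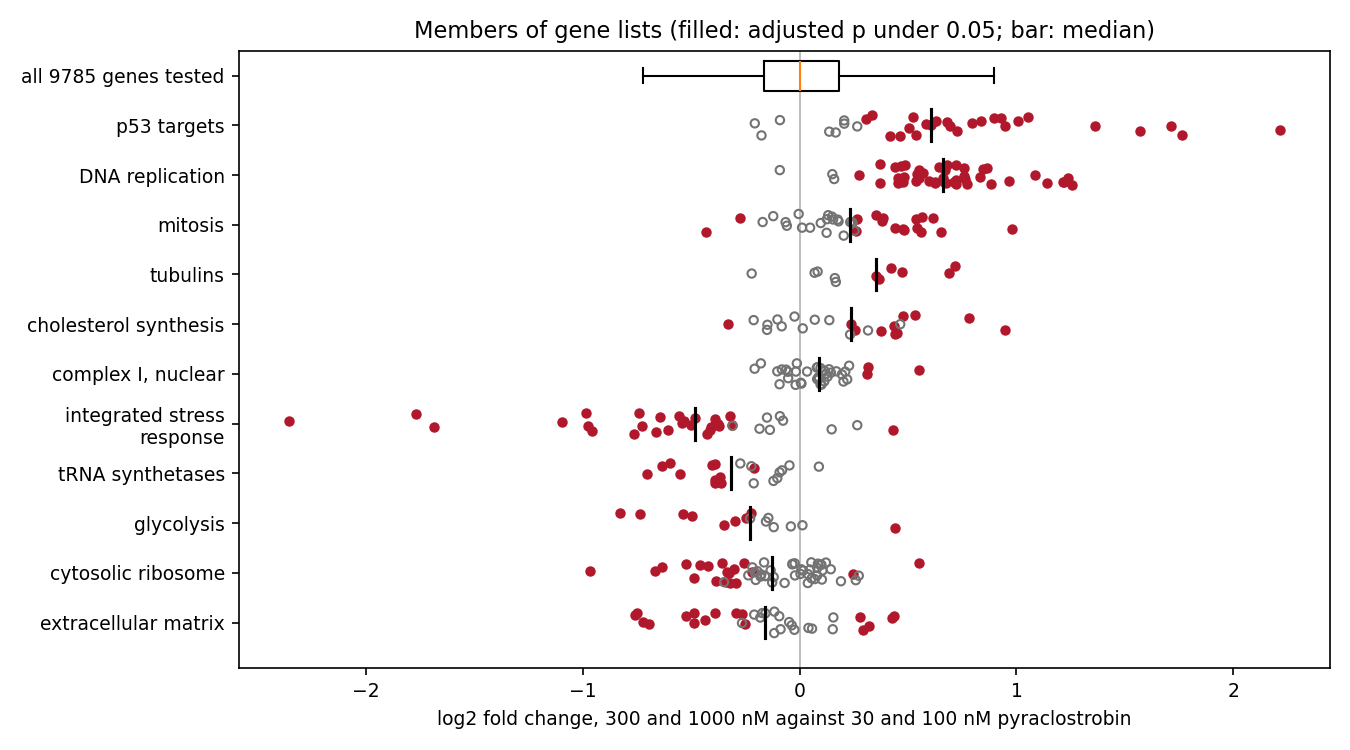
Log2 fold change between the high and the low pyraclostrobin concentrations (x axis) of the tested members of 11 gene lists, with a box for all 9785 genes (quartiles, with whiskers from percentile 1 to percentile 99). Filled circles have an adjusted p under 0.05 and bars mark list medians, which run from 0.66 for DNA replication to -0.48 for the integrated stress response.

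Among the genes with the strongest rise was Nanos1, an RNA-binding repressor of translation, at 8.16 and 5.97 CPM at the low, 33.9 and 47.3 CPM at the high concentrations, and 6.72 and 6.52 CPM in DMSO. Nanos1 rose by 2.50 (SE 0.18), which is 5.66-fold. Rdm1, a protein similar to the recombination factor RAD52, went from 3.96 and 4.17 to 14.2 and 21.1 CPM, and Ddias, which protects cells with DNA damage from apoptosis, from 44.3 and 41.7 to 132 and 164 CPM. They rose by 2.13 and 1.78 (SE 0.21 and 0.11). Ankle1, an endonuclease, and Mctp2, a membrane protein with C2 domains, rose by 1.51 and 1.52 (SE 0.15 and 0.16). Apart from Ddias, these genes passed the minimum through the high libraries only. Among the strongest falls were Socs2, a suppressor of cytokine signaling, from 19.6 and 23.6 to 6.88 and 7.37 CPM, and Sfmbt2, a Polycomb protein whose gene holds a cluster of microRNAs, from 26.4 and 28.2 to 11.7 and 6.85 CPM. They fell by 1.59 and 1.57 (SE 0.14 and 0.18), and Socs2 passed the minimum through the low libraries only.

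The same contrast was then set beside 2 related strobilurins at matched concentrations, which makes 2 pairs of compounds. By itself, the contrast called 0 of 9751 genes for trifloxystrobin, with 215 (2.2%) at an unadjusted p under 0.05 and 0 by DESeq2. For picoxystrobin it called 0 of 9709 genes, with 29 (0.299%) at an unadjusted p under 0.05 and 1 by DESeq2. These counts rest on the libraries that stood apart. Without trifloxystrobin at 30 nM 960 genes were called and without 100 nM 37, and without picoxystrobin at 300 nM 5292 were called and without 1000 nM 853. The change of pyraclostrobin was therefore compared directly with that of each compound, as a difference of 2 differences, with p-values adjusted over both pairs together.

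Against trifloxystrobin, the change differed for 180 of 9771 genes (1.84%), with 97 (0.993%) more positive and 83 (0.849%) more negative under pyraclostrobin. The number rests on single libraries: it was 1360 without trifloxystrobin at 30 nM and 293 without 100 nM, 58 without pyraclostrobin at 300 nM, and from 0 to 4 without any one of the other 5. With concentration as a block, 46 genes were called. For mt-Cytb the trifloxystrobin libraries held 13489, 16504, 15490 and 13076 CPM from 30 to 1000 nM, and the difference of the 2 log2 changes was -2.32 (95% interval from -2.89 to -1.75, adjusted p = 0.0134). Cdkn1a stood at 41.8, 44.8, 42.8 and 53.1 CPM under trifloxystrobin, and the difference was 1.57 (from 1.15 to 1.99, adjusted p = 0.0148). For Mdm2 it was 0.98 (from 0.68 to 1.28) and for Rrm2 1.55 (from 1.07 to 2.03). For Atf4 the difference was -1.30 (from -2.08 to -0.52) with an adjusted p of 0.100, and for Asns -0.68 (from -1.78 to 0.42), so that a difference for these stress genes was not resolved, with the low trifloxystrobin library at 100 nM inside the comparison. Aurkb differed by 0.76 (from 0.13 to 1.40, adjusted p = 0.217).

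Against picoxystrobin, the change differed for 9 of 9754 genes (0.0923%), 4 (0.041%) more positive and 5 (0.0513%) more negative under pyraclostrobin, and the number was 3589 without picoxystrobin at 300 nM, 771 without 1000 nM, and from 0 to 4 without any one of the other 6 libraries. With concentration as a block, 2 genes were called. Chac1 stood at 18.3, 28.7, 32.2 and 35.1 CPM under picoxystrobin, and the difference was -2.88 (from -3.78 to -1.98, adjusted p = 0.0351). Atf5 differed by -2.40 (from -3.32 to -1.48, adjusted p = 0.0425, or 0.0558 with concentration as a block) and Nanos1 by 2.21 (from 1.42 to 3.01, adjusted p = 0.0399). Of these genes, Chac1 passed the minimum through the low and Nanos1 through the high pyraclostrobin libraries only, as given above. mt-Cytb stood at 19017, 17871, 21649 and 6162 CPM, so that only the 1000 nM library of picoxystrobin was low, and the difference was -1.99 (from -3.64 to -0.34, adjusted p = 0.224). Cdkn1a, at 29.9, 26.7, 29.9 and 101 CPM, had its high value in that library as well, with a difference of 0.50 (from -1.03 to 2.03, adjusted p = 0.772). For Tubb6 the difference was 0.00 (from -1.02 to 1.02). Intervals of this width leave room for both like and unlike changes of the 2 compounds.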

How the data were processed

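RNA-seq counts of 16 libraries were used. The authors made libraries from total RNA (Lexogen's SENSE kit) for single-end sequencing, counted reads per gene with htseq-count, and deposited raw counts without normalization. The submitters' processing notes name Bowtie2 2.3.2.2 and mm10. The annotation and the strand setting are not given in the sources used here. Groups were taken from the labels.

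After TMM scaling, edgeR 4.0.16 (R 4.3.3) was used to fit quasi-likelihood models and test the genes that averaged over 10 CPM, with Benjamini-Hochberg adjustment and a threshold of 0.05 after the study. The study used DESeq2, which was run as an alternative (1.42.0). Log2 fold changes come from the fit of the 4 libraries, SE from the test statistic, and CPM from TMM factors over the 16 libraries. Changes between single libraries used a prior count of 2. Total counts of 12292390 to 18188099 leave genes near 10 CPM with counting error, and for others the few libraries limit precision. On simulated counts (9785 genes, 200 changed), the test recovered 94% of 1.5-fold and 99% of 2-fold changes, and 3.02% of its calls were unchanged genes. The test of compound differences (9771 genes) recovered 33% and 86%, with 7.75% unchanged. Both simulations took the spread fitted to the same libraries and held no change between the concentrations of a pair. These rates therefore do not give the share of false calls in the data. GENCODE M21 gave positions, GC content and length (99.7% of tested genes), and gene symbols were matched for 54092 of 54658.

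Genes were named by rule: the 10 strongest called in each direction, leaving out predicted genes, up to 4 of smallest p in each list, and the genes Cdkn1a, Ccng1, Mdm2, Trp53, Atf4, Ddit3, Asns, Thra, Hr, Klf9, Hprt and mt-Cytb. A gene that the rule names is not reported here. Exceptions are marked in the text, and the mitochondrial genes are given in full. The comparison and the gene lists were chosen with earlier results of these data known. Alternatives were other size factors, filters, DESeq2, a robust fit, a GC and length offset (splines with 4 degrees of freedom), a concentration trend, other sets of libraries, concentration as a block between compounds, and each library left out. Figures were drawn with matplotlib.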

Additional observations from a re-analysis of the deposited data

Results flagged for a closer look

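The change from low to high concentrations differed between compounds, by the test of the difference itself in edgeR, for 31 of the genes named above. Each value below is the log2 change of pyraclostrobin minus that of the other compound. Against trifloxystrobin, the mitochondrial genes differed by -2.32 (mt-Cytb), -1.54 (mt-Nd4), -1.53 (mt-Nd6), -1.36 (mt-Nd5), -0.80 (mt-Nd2) and 1.81 (mt-Rnr1). Genes of the p53 response differed by 2.14 (Pmaip1), 1.68 (Ccng1), 1.57 (Cdkn1a), 1.49 (Trp53inp1), 1.04 (Polk), 0.98 (Mdm2) and 0.87 (Rps27l). Genes of the cell cycle differed by 1.73 (Ccne2), 1.55 (Rrm2), 1.54 (Cdc6) and 1.37 (Mybl2). The tubulin Tubb6 differed by 0.70 and the linker histone Hist1h1c by -2.30. Among the other genes with a more positive change under pyraclostrobin were Nanos1 (2.77), Ddias (1.95), Mrpl33 (0.84), Hsd17b7 (0.71), Ndufb10 (0.61) and Me1 (0.56). More negative were Socs2 (-1.87), Sfmbt2 (-1.47), Notch2 (-0.83) and Fbn1 (-0.68). Against picoxystrobin, Chac1 differed by -2.88, Atf5 by -2.40 and Nanos1 by 2.21. Pmaip1 and Mybl2 against trifloxystrobin, and Nanos1 against both compounds, averaged too low in the libraries of the other compound for a contrast of their own there, and passed the minimum through the high pyraclostrobin libraries. Chac1, Hist1h1c and Socs2 passed the minimum of the pyraclostrobin contrast through its low libraries only. These genes did pass the minimum in the libraries of the compound they were compared with. The adjusted p of all differences listed here was between 0.0107 and 0.0425. With concentration as a block, 18 of the 29 differences from trifloxystrobin and 2 of the 3 from picoxystrobin were called. Every one of these differences kept its sign with each library left out in turn, in the fits where the gene passed the minimum. Each lost its call in some of these fits, and most did so in the majority of them. Groups of 2 libraries are too small for a check of single outlying libraries.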

How the results depend on the processing

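The spread between 2 concentrations stands in for that between replicates, so a response within the low or the high pair adds to the error. No paired analysis was possible within a compound because the low and high groups share no concentration and the labels carry no replicate numbers. Between compounds, concentration was added as a block after the data were seen. For the comparison of high with low pyraclostrobin, the 2847 called genes became 743 with all compounds in 1 model and 1365 with a trend on log10 concentration, and 1504 to 2933 with 1 library left out. The lowest came without the 1000 nM library. The 263 called members of the gene lists became 63 with all compounds in 1 model and 156 with the trend. With all compounds in 1 model, which shares the larger spread of the picoxystrobin and trifloxystrobin libraries, 4 genes of the cytosolic ribosome, 2 of glycolysis and 7 of the matrix fell, 3 of cholesterol synthesis rose, and no tubulin rose.

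For trifloxystrobin alone, 10 genes were called with no filter on low counts and 0 to 960 with 1 library left out. For picoxystrobin alone, 1 was called by DESeq2 and 0 to 5292 with 1 library left out. The difference between pyraclostrobin and trifloxystrobin was called for 512 genes by DESeq2, 295 with the filterByExpr function, 1259 with no filter, 46 with concentration as a block, and 0 to 1360 with 1 library left out. The difference from picoxystrobin was called for 71 genes by DESeq2, 14 with filterByExpr, 218 with no filter, 24 with the GC and length correction, 2 with concentration as a block, and 0 to 3589 with 1 library left out. The cause of these shifts was not tested.

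Over 1.5-fold in place of 2-fold, 19, 487 and 16 genes changed in the 3 successive steps of pyraclostrobin, and 26 between the DMSO libraries. Among genes over 50 CPM, 0, 26 and 0 genes changed over 2-fold in these steps and 0 between the DMSO libraries, and with the GC and length correction 0 changed from 30 to 100 nM.

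Of 119 named genes that were called, 48 were called under every alternative that tested them, and none changed direction. The call was lost for 70 with all compounds in 1 model, 31 with the trend, 12 by DESeq2 and 21 without the 1000 nM library. With a library left out, the calls of Ndufb3, Ndufc1, Acly, Fads1, Neu1, Dnajc3, Herpud1, Nes, Tubb3, Tubg1, Rxra, Rxrb, Pdgfrb, Dnaja1 and Dusp1 were also lost (adjusted p from 0.0534 to 0.351). Of genes that were not called, Pold2 turned sign with the GC and length correction (log2 fold change 0.00054) and ranged from -0.20 to 0.0087. Bbc3 turned sign with the correction (0.026), while Cyc1 (0.26) and Vim (-0.21) were called with it. Gadd45a was called without the 100 nM library (0.34). mt-Co1 was called with no filter on low counts (0.20) and Sox10 without the 30 nM library (-0.33).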
